A study of Mus musculus with 6 samples.

Results

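The genes described here are a fixed list of 32 markers of neuroblasts and immature neurons, made up of interneuron-lineage transcription factors, GABA-synthesising enzymes, cytoskeletal and growth cone proteins, neuronal RNA-binding proteins and surface proteins. They were taken by gene name from a table of 27372 genes, which holds 30 of them. Dlx5 and Sp8 had no row and are not analysed here. Of the 30, 26 passed the filter on low counts and were tested. Dlx6, Dlx6os1, Gad2 and Stmn2 did not pass.

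The measurements were RNA-seq counts from mouse neural stem cells of postnatal day 7, cultured as neurospheres (floating clusters of progenitors) and harvested after 7 days. The 3 tested libraries carry the genotype label Sirt6 knockout, which the series text calls a conditional knockout, and the 3 control libraries carry the label WT. Every library came from the same DMEM/F12 proliferation medium, with EGF and bFGF at 20 ng/ml each, the serum-free supplement B27 at 2% and 0.2% BSA. The sources used here do not name the Cre driver, the strain or the number of mice behind a library. A p-value therefore covers only the spread among these 6 libraries, which may in part be technical. Totals lay between 17198852 and 18297275 counts per library.

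Sirt6, the targeted deacylase, was not lower in the libraries labelled knockout. It had 474, 492 and 442 counts in the libraries labelled knockout 1, 2 and 3, against 380, 293 and 260 counts in controls 1, 2 and 3, a log2 fold change of 0.61 ± 0.19 (SE; edgeR adjusted p = 0.998). The gene's counts thus go against the labels. They do not show whether a part of the gene was deleted, since reads from the remaining exons are counted too. Every direction below belongs to the knockout-labelled libraries and is not given as one of Sirt6 loss. Summed over 4 Y-linked genes, the level was 0.755, 0.12 and 0 CPM (the count relative to library size, scaled by the TMM method) in the libraries labelled knockout, against 67.5, 234 and 0 CPM in the controls. Y-linked RNA comes from male cells. It was clear in controls 1 and 2, and at or near 0 in control 3 and in every library labelled knockout. Sex and label are thus partly confounded, and their parts in the differences below cannot be fully told apart. The 3 controls, which differ in Y-linked RNA, were not all repeats of the same cell pool.

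In the postnatal forebrain, neural stem cells of the ventricular wall give rise to dividing progenitors that express Dlx2, and these to neuroblasts that carry doublecortin (Dcx) and polysialylated NCAM. The neuroblasts migrate to the olfactory bulb and mature into GABA interneurons there. Cultures kept in EGF and FGF hold the cells in a dividing state, and neurons form mainly once the mitogens are withdrawn. Some of the listed genes, such as Sox4, Sox11, Stmn1 and Ncam1, are also transcribed in dividing progenitors and are not confined to neuroblasts.

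The neuroblast genes were unevenly represented in these cultures. Per kilobase of exon, the highest levels belonged to Gap43 (149 CPM per kilobase, mean of 6 libraries), Dpysl3 (81.0), Stmn1 (76.6), Stmn3 (69.6) and Sox4 (62.6). Dcx, the marker most closely tied to migrating neuroblasts, stood at 3.66 CPM per kilobase, Dlx2 at 0.881, Sp9 at 0.739 and Dlx1 at 0.401. Gad2, Stmn2, Dlx6 and Dlx6os1 were near 0, whereas Gad1, which like Gad2 makes GABA, averaged 79.4 CPM over the 6 libraries. Gad2 had 10, 15 and 3 counts in the libraries labelled knockout, against 7, 4 and 14 in the controls. Stmn2, a stathmin of growing neurites, had 17, 1 and 5 counts in the libraries labelled knockout, against 0, 2 and 6 in the controls. Dlx6 had 1 count in the library labelled knockout 3 and 1 in control 3, and its antisense partner Dlx6os1 had 1 count, in control 3. A count of 0 in a library allows a level of up to 0.179 CPM (3 counts, counting error only). The vesicular GABA transporter gene Slc32a1 was at 0 in every library but control 3, which had 0.172 CPM. All 14 genes of GABA neuron function with a row, Slc32a1 among them, summed to far more. Their sum was 1435 to 1872.5 CPM in the libraries labelled knockout and 1407 to 2219 CPM in the controls. Gap43, Dpysl3, Stmn1, Stmn3 and Sox4 were thus well represented, while Gad2, Stmn2, Dlx6, Dlx6os1 and Slc32a1 were at or near 0. Levels did not divide by role: Meis2 (12.4 CPM per kilobase) and Gad1 (10.4) stood above Map1b (7.57) and Dcx.

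**Figure D1:**
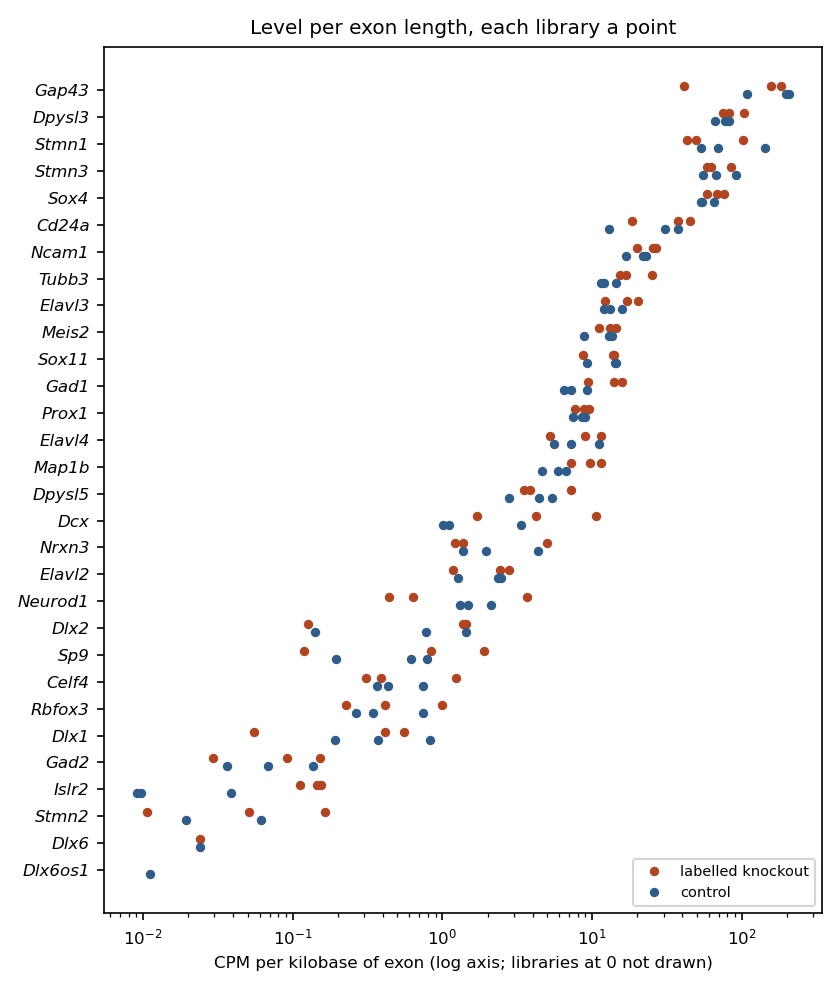
Level of the 30 listed genes with a row, as CPM per kilobase of exon on a log axis, each point a library and libraries at 0 not drawn. Gap43 has the highest mean (149) and Dlx6os1, with a single count, the lowest.

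By edgeR's quasi-likelihood test with Benjamini-Hochberg adjustment over all 15087 genes tested, 0 of the 26 genes differed between the groups (adjusted p under 0.05), where 0.00% of all genes were called. At an unadjusted p under 0.05, 4 of the 26 were higher in the libraries labelled knockout, where the share of all genes was 1.98%, and 0 were lower, against 1.50% of all genes. These 4 were Gad1, Map1b, Tubb3 and Islr2. DESeq2 also called 0 of them after adjustment (0.0183% of all genes), as did limma-voom (0.00%). An adjusted p stands beside 28 of the genes in the authors' deposited table, and 0 of these lie under 0.05. The log2 fold change was above 0 in 19 of the 26 (73.1%) and below 0 in 7, against 50.0% of all genes above 0, and the median was 0.22, against 6.6e-05 over all genes. Islr2 passed the filter through the libraries labelled knockout, where it was high, and so had to differ. Without it, 3 of 25 genes were higher at an unadjusted p under 0.05, and 18 of 25 were above 0.

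The median rested strongly on single libraries. It was 0.063 without the library labelled knockout 1, 0.35 without the library labelled knockout 3 and 0.12 without control 3, and 0.39 with the level of the Y-linked transcripts as a covariate. With that covariate Gad1 and Map1b were no longer under an unadjusted p of 0.05, and the 4 genes that were, all higher, were Meis2, Tubb3, Cd24a and Islr2. The share of all genes under 0.05 in that fit was not computed, so this count has no background beside it. In bulk RNA, more neuroblasts in a culture and more RNA of a gene per neuroblast cannot be told apart.

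**Figure D2:**
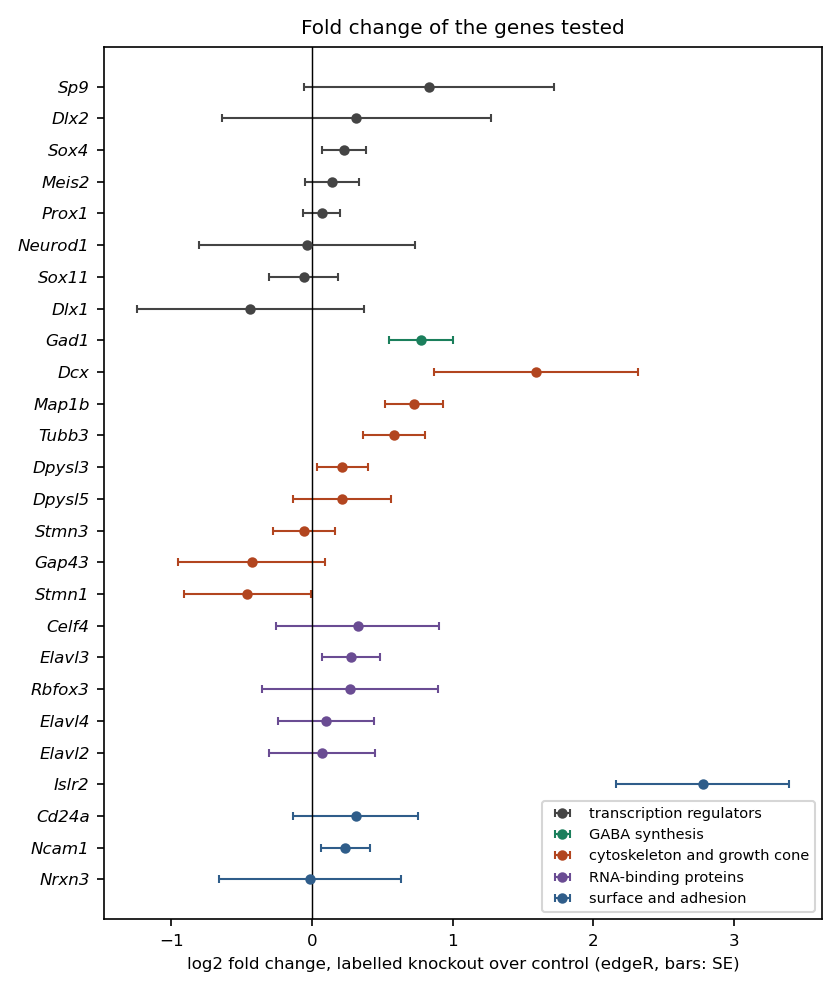
Log2 fold change of the 26 genes tested, libraries labelled knockout over controls, with SE as bars, grouped by role. Most points lie right of 0 (19 of 26), and Islr2, Dcx, Sp9, Gad1, Map1b and Tubb3 have the highest values.

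Dcx (chrX:143855842-143933311, minus strand, mm10) binds and stabilises microtubules in migrating neuroblasts. It had 134, 21.4 and 53.0 CPM in the libraries labelled knockout 1, 2 and 3, against 42.3, 12.8 and 14.1 CPM in controls 1, 2 and 3. The library labelled knockout 1 was far above the rest, and the groups overlapped, since the library labelled knockout 2 lay below control 1. The log2 fold change was 1.59 ± 0.73 (SE; edgeR adjusted p = 0.998), and 0.69 ± 0.62 without the library labelled knockout 1. Its unadjusted p was 0.0633 in the edgeR fit of all 6 libraries. It was 0.309, 0.0175 and 0.0739 without the library labelled knockout 1, 2 and 3, and 0.0177, 0.159 and 0.163 without control 1, 2 and 3. Within each replicate number the library labelled knockout was higher, by 1.66, 0.74 and 1.90 on the log2 scale.

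Map1b (chr13:99421446-99516540), which binds microtubules in extending axons, had 180.2, 115 and 153 CPM in the libraries labelled knockout, against 105, 73.4 and 93.1 CPM in the controls. The lowest library labelled knockout was above the highest control. The means were 149 ± 32.9 CPM in the libraries labelled knockout and 90.6 ± 16.1 CPM in the controls (SD, n = 3 each). On the log2 scale the fold change was 0.72 ± 0.21 (SE; edgeR unadjusted p = 0.00916, adjusted p = 0.998). The 3 same-numbered differences were close to each other, at 0.78, 0.65 and 0.72 on the log2 scale. With the Y-linked covariate the fold change was 0.67 ± 0.29 (SE; edgeR unadjusted p = 0.0618).

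Gad1 (chr2:70553072-70602014), which makes GABA from glutamate, had 71.6, 121 and 108 CPM in the libraries labelled knockout, against 54.8, 49.7 and 71.0 CPM in the controls. The groups did not overlap, although the library labelled knockout 1 and control 3 were almost level. The log2 fold change was 0.78 ± 0.23 (SE; edgeR unadjusted p = 0.0107, adjusted p = 0.998). The Y-linked covariate brought it to 0.47 ± 0.27 (SE; edgeR unadjusted p = 0.123). Gad1 was highest in the library labelled knockout 2, where Dcx was lowest among the libraries labelled knockout, so the GABA enzyme and doublecortin did not order those libraries alike.

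Groups did not overlap for 4 of the 26 genes, all higher in the libraries labelled knockout, where 4.88% of all genes tested were apart in that direction, and for 0 in the other direction, against 3.73% of all genes. Without Islr2, which had to differ, the count was 3 of 25. Besides Map1b and Gad1 these were Tubb3 and Islr2. Tubb3, the neuronal beta-tubulin, had 46.6, 28.5 and 31.4 CPM in the libraries labelled knockout, against 21.5, 27.1 and 22.5 CPM in the controls. The gap was narrow: in unscaled counts the library labelled knockout 2 (476) lay below control 2 (504). Its log2 fold change was 0.58 ± 0.22 (SE; edgeR adjusted p = 0.998). The unadjusted p of 0.0311 became 0.119 without the library labelled knockout 1, where the fold change was 0.34 ± 0.19 (SE), 0.0945 without control 1 and 0.0745 without control 3. Islr2, a leucine-rich repeat surface protein of developing axons, had 17, 11 and 15 counts in the libraries labelled knockout, against 1, 1 and 4 in the controls. At this depth the level is uncertain, and 181 of its exon bases are shared with Islr on the same strand, which had 20, 4 and 11 counts in the libraries labelled knockout and 21, 0 and 7 in the controls.

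Same-numbered libraries deviated together, so the groups were also compared within replicate numbers, with number as a block in the fit. This pairing was inferred from the same counts, and the labels do not give it. Of the 26 genes, 7 were higher in the libraries labelled knockout in all 3 numbers, against 18.0% of all genes, and 3 were lower (Sox11, Stmn1 and Gap43), also against 18.0%. Leaving out Islr2, which had to differ, 6 of 25 were higher in all 3 numbers. With the block, edgeR called 0 of the 26 genes (0.00% of all genes), with Map1b at an adjusted p of 0.0896 and Dcx at 0.108. At an unadjusted p under 0.05 it had 6 higher, where 5.69% of all genes were, namely the same 4, Dcx and Cd24a, and 1 lower, Stmn1, against 6.77% of all genes. Without Islr2 the count of higher genes was 5 of 25. DESeq2 with the block called 3 of 25 genes with an adjusted p, all higher in the libraries labelled knockout, where 1.17% of all genes were called in that direction and 3.56% in either. These were Dcx (log2 fold change 1.45 ± 0.24 SE, adjusted p = 4.2e-07), Map1b (0.71 ± 0.14, adjusted p = 8.5e-05) and Gad1 (0.76 ± 0.20, adjusted p = 0.00770). In the same DESeq2 fit Stmn1, lower in the libraries labelled knockout, had -0.44 ± 0.14 (adjusted p = 0.0539). Gap43, also lower, had -0.63 ± 0.22 (adjusted p = 0.103). Within numbers 1 and 2 the control had clear Y-linked RNA and the library labelled knockout almost none. Sex and label are confounded within those numbers, and their parts in these calls cannot be told apart.

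The stretches upstream of the RefSeq gene starts of Dcx, Gad1 and Map1b are shown because these 3 genes were called by DESeq2 with the block. Each runs 5′ to 3′ on the gene's strand over the 250 bases before a gene start (RefSeq, GRCm38.p6), and capitals mark a match, on either strand, to 1 of 6 short motifs. The Dcx stretch is chrX:143933220-143933469 on the minus strand, which overlaps the end of the gene's span in the deposited table, that of Gad1 chr2:70561879-70562128 on the plus strand, within the annotated span of the gene, and that of Map1b chr13:99516603-99516852 on the minus strand.
Dcx: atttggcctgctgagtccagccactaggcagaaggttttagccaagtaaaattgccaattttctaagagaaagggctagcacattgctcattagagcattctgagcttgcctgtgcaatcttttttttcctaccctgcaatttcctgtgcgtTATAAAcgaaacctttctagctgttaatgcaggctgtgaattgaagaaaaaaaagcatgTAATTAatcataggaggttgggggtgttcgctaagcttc
Gad1: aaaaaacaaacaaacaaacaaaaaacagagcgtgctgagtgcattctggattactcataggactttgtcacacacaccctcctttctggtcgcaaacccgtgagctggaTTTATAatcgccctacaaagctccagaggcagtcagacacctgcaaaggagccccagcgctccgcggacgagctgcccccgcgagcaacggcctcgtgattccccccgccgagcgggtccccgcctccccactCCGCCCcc
Map1b: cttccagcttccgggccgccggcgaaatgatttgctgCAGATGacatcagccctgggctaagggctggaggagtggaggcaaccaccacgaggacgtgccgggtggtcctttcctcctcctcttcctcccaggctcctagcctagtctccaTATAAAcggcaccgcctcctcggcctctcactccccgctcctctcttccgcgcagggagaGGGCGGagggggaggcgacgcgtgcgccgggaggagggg
Each of the 3 held TATAAA, the core of the TATA box, which 12.4% of all 32851 upstream stretches in the RefSeq table held. The Dcx stretch alone held TAATTA, a core bound by homeodomain proteins such as the DLX factors (4.84% of all stretches). That match lies within the gene's span in the deposited table, downstream of its first base. The Map1b stretch held the E-box CAGATG (14.4%), and those of Gad1 and Map1b held the GC box GGGCGG (32.7%). Neither the E-box CAGCTG (13.0%) nor TTCAGCACC, the left part of the element bound by the neuronal repressor REST (0.301%), was present. The 23 listed genes in the RefSeq table have 40 stretches, several of them from the same gene. Of these, 9 from 8 genes held TATAAA, 7 from 4 genes held TAATTA (Dcx, Elavl4, Dlx6os1 and Sp8, of which Dlx6os1 and Sp8 were not tested) and 18 from 13 genes held GGGCGG. The E-box CAGATG was in 7 from 5 genes, that of the form CAGCTG in 5 from 4 genes and the REST part in 0. No motif overlapped another, and a match is a description of the letters only.

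**Figure D3:**
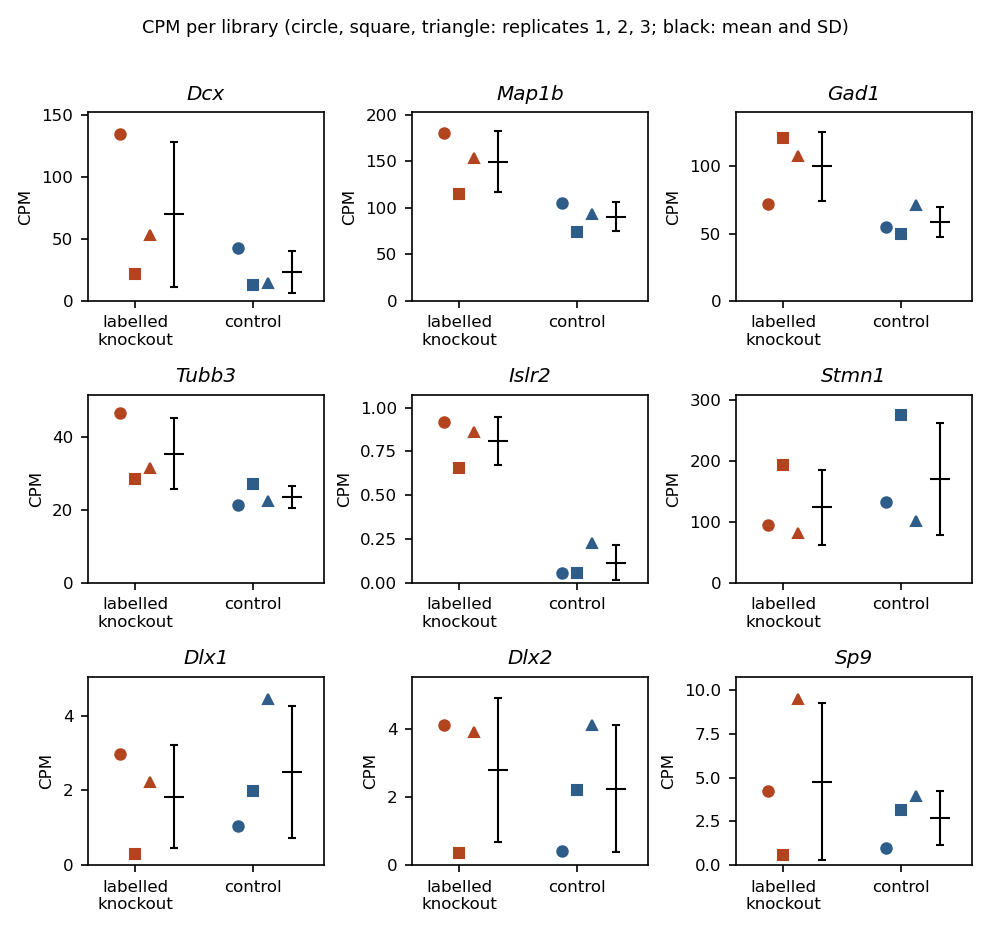
CPM of 9 genes in each library, libraries labelled knockout left of controls, with replicate 1 as a circle, 2 as a square and 3 as a triangle, and the mean and SD in black. Map1b, Gad1, Tubb3 and Islr2 do not overlap between groups, while Dlx1, Dlx2 and Sp9 are lowest in the library labelled knockout 2 and in control 1.

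Among the transcription regulators 0 of the 8 tested had an unadjusted p under 0.05 (5 above 0 and 3 below 0 in log2 fold change, median 0.10). Dlx2, a homeodomain factor needed for GABA interneuron fate, had 76, 6 and 68 counts in the libraries labelled knockout, against 7, 41 and 72 in the controls (log2 fold change 0.31 ± 0.96, SE). Dlx1, its neighbour and partner on chromosome 2, had 55, 5 and 39 counts in the libraries labelled knockout, against 18, 37 and 78 in the controls (log2 fold change -0.44 ± 0.81, SE). Sp9, a zinc finger factor of the same lineage, had 78, 10 and 166 counts in the libraries labelled knockout, against 17, 58 and 69 in the controls (log2 fold change 0.83 ± 0.89, SE). The 3 genes were lowest in the same libraries, the library labelled knockout 2 and control 1, which carry different labels and numbers. Their highest library exceeded their lowest by 11.5 to 15.9-fold in CPM. These libraries were the lowest, in either order and with a range above 10-fold, for 17 of all genes tested (0.113%). The pattern was picked out after the values were seen. Dlx1 shares 335 exon bases with Dlx1as on the opposite strand, which had 78, 38 and 99 counts in the libraries labelled knockout and 70, 45 and 87 in the controls. Sp9 shares 270 exon bases with Cir1. How the counting treated strand is not stated, so reads of such partners cannot be told apart.

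The upstream stretches of these 3 are given for comparison, with the same marking: chr2:71529195-71529444 (plus strand) for Dlx1, chr2:71546755-71547004 (minus strand) for Dlx2 and chr2:73271676-73271925 (plus strand) for Sp9. The Dlx1 stretch lies within the gene's span in the deposited table (chr2:71528113-71533981), downstream of its first base.
Dlx1: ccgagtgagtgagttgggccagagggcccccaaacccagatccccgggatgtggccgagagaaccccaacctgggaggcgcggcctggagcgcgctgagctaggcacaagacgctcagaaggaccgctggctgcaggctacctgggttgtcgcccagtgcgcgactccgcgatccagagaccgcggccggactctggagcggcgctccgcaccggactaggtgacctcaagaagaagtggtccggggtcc
Dlx2: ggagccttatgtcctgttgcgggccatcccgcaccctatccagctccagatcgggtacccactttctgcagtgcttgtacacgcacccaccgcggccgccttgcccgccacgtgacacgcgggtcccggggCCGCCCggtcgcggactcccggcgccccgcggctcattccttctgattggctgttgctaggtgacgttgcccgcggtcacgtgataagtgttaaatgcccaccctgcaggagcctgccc
Sp9: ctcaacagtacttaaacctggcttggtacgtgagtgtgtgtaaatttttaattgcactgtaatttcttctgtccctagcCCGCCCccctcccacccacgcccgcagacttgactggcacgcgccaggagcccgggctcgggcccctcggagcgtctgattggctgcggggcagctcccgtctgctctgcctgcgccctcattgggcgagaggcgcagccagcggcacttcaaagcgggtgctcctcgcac
Of the 6 motifs they held only GGGCGG, in Dlx2 and Sp9. Their GC content was 68.0% for Dlx1, 66.4% for Dlx2 and 62.4% for Sp9, against 41.6% for Dcx, 58.0% for Gad1 and 66.4% for Map1b, with a median of 52.4% over all stretches.

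Neurod1, a basic helix-loop-helix factor of neuronal differentiation, had 187, 29 and 21 counts in the libraries labelled knockout, against 62, 107 and 71 in the controls. Only the library labelled knockout 1 exceeded the controls, and the other two lay below all 3. It shares 201 exon bases with Cerkl on the same strand. Its log2 fold change was -0.04 ± 0.77 (SE), and -1.60 ± 0.41 without the library labelled knockout 1 (edgeR unadjusted p = 0.00707, adjusted p over 0.99 in both fits). The abundant regulators varied little. Sox4, a SOX factor of early neuronal differentiation, had 279, 364 and 328 CPM in the libraries labelled knockout, against 259, 313 and 257 CPM in the controls. Its relative Sox11 had 114, 116 and 72.0 CPM in the libraries labelled knockout, against 120.1, 118 and 76.4 CPM in the controls. The homeodomain factor Meis2 had 159, 174 and 134.5 CPM in the libraries labelled knockout, against 164, 155 and 106 CPM in the controls. Prox1, a homeodomain factor of granule neurons and of oligodendrocyte progenitors, had 74.0, 79.9 and 64.6 CPM in the libraries labelled knockout, against 74.7, 62.3 and 71.4 CPM in the controls, the narrowest range of the 26 genes (1.28-fold). Groups overlapped for all 4.

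Of the cytoskeletal and growth cone genes, 8 were tested: 5 had a log2 fold change above 0 and 3 below 0, with a median of 0.21. Stmn1, a tubulin-sequestering protein that is also abundant in dividing cells, had 94.8, 194 and 82.5 CPM in the libraries labelled knockout, against 133, 276 and 102 CPM in the controls (log2 fold change -0.46 ± 0.45, SE). It ordered the 6 libraries exactly as the summed level of 15 genes of cycling progenitors did, which was 1007, 2315 and 680.5 CPM in the libraries labelled knockout, against 1949.8, 3661 and 1368 CPM in the controls. The same order was seen in 1.97% of all genes tested. The cycling genes were all below 0 in log2 fold change (15 of 15, with 0 at an unadjusted p under 0.05), and their part in the Stmn1 values was not tested. Stmn3, a stathmin of neurons, had 66.9, 95.3 and 70.4 CPM in the libraries labelled knockout, against 75.7, 104 and 62.7 CPM in the controls, which overlapped throughout.

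Gap43, a growth cone protein, had 277, 239.8 and 62.6 CPM in the libraries labelled knockout, against 316, 299 and 165 CPM in the controls. It was low in the third library of each group, and its log2 fold change of -0.43 ± 0.52 (SE) became -0.0066 without the library labelled knockout 3. Those libraries had the highest summed level of 12 astrocyte genes, 22347 CPM in the library labelled knockout 3 and 14625 CPM in control 3, against 9850.5 and 9911 CPM in the other libraries labelled knockout and 7112 and 3104 CPM in the other controls. The part of these genes in the Gap43 values was not tested. Dpysl3 and Dpysl5 belong to the collapsin response mediators, which link guidance cues to microtubules. Dpysl3 had 495, 686 and 545 CPM in the libraries labelled knockout, against 508, 542 and 436 CPM in the controls. Dpysl5 had 53.3, 28.3 and 26.0 CPM in the libraries labelled knockout, against 32.8, 39.6 and 20.4 CPM in the controls. Both overlapped between groups.

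All 5 RNA-binding genes had a log2 fold change above 0 (0.07 to 0.32, median 0.27), 0 had an unadjusted p under 0.05, and groups overlapped in each. Elavl3, the most abundant of the neuronal ELAV proteins here, had 139.8, 83.4 and 119 CPM in the libraries labelled knockout, against 108, 82.9 and 90.8 CPM in the controls. Elavl4 had 48.4, 61.3 and 28.4 CPM in the libraries labelled knockout, against 38.7, 60.0 and 30.1 CPM in the controls. Elavl2 had 23.0, 20.3 and 9.80 CPM in the libraries labelled knockout, against 19.6, 20.4 and 10.6 CPM in the controls. Elavl2 and Elavl4 thus differed more between numbers than between groups. Celf4, a splicing and translation regulator of neurons, had 10.6, 2.63 and 3.32 CPM in the libraries labelled knockout, against 6.39, 3.12 and 3.72 CPM in the controls. Rbfox3, which encodes the antigen NeuN of maturing neurons, had 5.77, 1.32 and 2.41 CPM in the libraries labelled knockout, against 2.01, 4.31 and 1.55 CPM in the controls. For both, the library labelled knockout 1 was the highest, and without it their log2 fold changes were -0.56 for Celf4 and -0.49 for Rbfox3.

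Of the surface genes, Cd24a, a glycoprotein of neuroblasts and ependymal cells, had 96.1, 115 and 47.5 CPM in the libraries labelled knockout, against 96.4, 79.1 and 33.3 CPM in the controls. Ncam1, the carrier of polysialic acid, had 222, 231 and 173 CPM in the libraries labelled knockout, against 198, 145 and 189 CPM in the controls. Nrxn3, a presynaptic adhesion protein, had 63.3, 15.2 and 17.2 CPM in the libraries labelled knockout, against 55.1, 17.2 and 24.5 CPM in the controls. Nrxn3 stood out in the libraries numbered 1 of both groups and differed little between the groups (log2 fold change -0.01 ± 0.65, SE). Groups overlapped for all 3 genes.

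**Figure D4:**
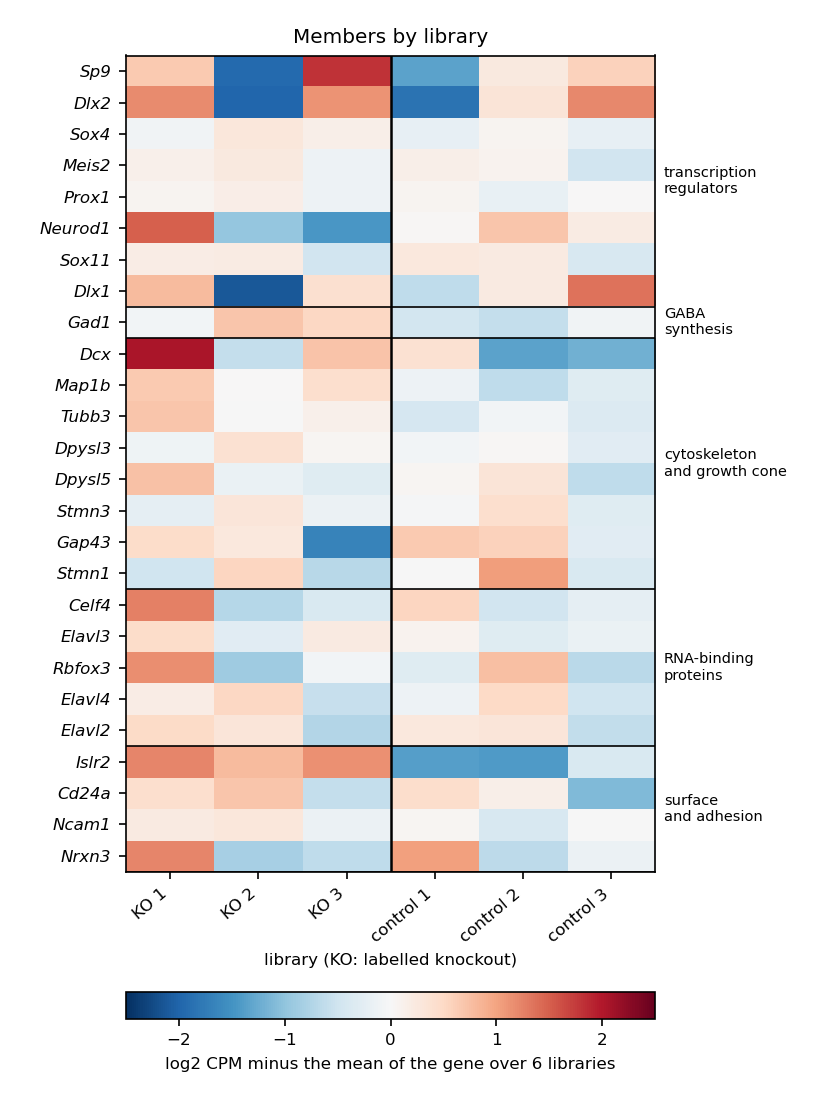
Log2 CPM of each of the 26 genes minus its mean over 6 libraries (colour), by library, with libraries labelled knockout on the left. The library labelled knockout 1 is the reddest column, and Dlx1, Dlx2 and Sp9 are blue in the library labelled knockout 2 and, with Dlx1 the palest, in control 1.

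The library labelled knockout 1 carried much of the pattern. It had the highest CPM of the 6 libraries for 11 of the 26 genes (42.3%), where 14.7% of all genes tested peaked there, and the lowest for 0, against 14.0% of all genes. The 11 were Dcx, Map1b, Tubb3, Dpysl5, Neurod1, Elavl2, Elavl3, Celf4, Rbfox3, Nrxn3 and Islr2. Leaving out Islr2, which passed the filter through the libraries labelled knockout, the count was 10 of 25. The library labelled knockout 2 was highest for 8, among them Gad1, Sox4 and Meis2, where 15.6% of all genes peaked, and lowest for 6, among them Dlx1, Dlx2 and Sp9 (15.6% of all genes). The library labelled knockout 3 was highest for 1, Sp9, against 20.3% of all genes, and lowest for 6, against 20.9%. Each control was highest for 2 genes, against 8.52%, 24.5% and 16.4% of all genes for controls 1, 2 and 3. Relative to each gene's mean, the median level of the 26 was 0.48, 0.19 and -0.13 on the log2 scale in the libraries labelled knockout 1, 2 and 3, against 0.01, 0.11 and -0.29 in the controls, so the groups overlapped. Single genes ranged widely between libraries: 12 of 26 had a highest library more than 3-fold above the lowest, against 20.1% of all genes tested. That count was 11 of 25 without Islr2.

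**Figure D5:**
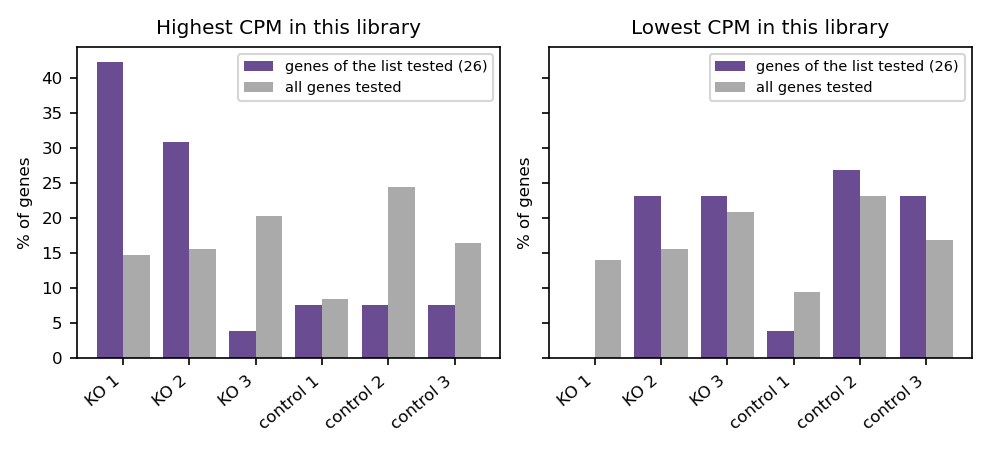
Share of the 26 genes (purple) and of all genes tested (grey) whose highest (left) or lowest (right) CPM was in each library. The library labelled knockout 1 was highest for 42.3% of the 26 genes against 14.7% of all genes, and lowest for 0. Without Islr2 it was highest for 10 of 25.

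Other genes of the lineage, from lists that contain none of the 32, were examined for the same comparison. By edgeR 0 genes of any of these lists passed the adjusted threshold, with or without the replicate block. Of 14 tested genes upstream in neurogenesis, 9 had a log2 fold change above 0 and 5 below 0 (median 0.07), with 1 higher at an unadjusted p under 0.05. The most abundant were Tcf4, Tcf12 and Myt1, which are transcription factors of neural differentiation, at 0.05, 0.20 and -0.02. Of 17 other interneuron-lineage factors, 10 were above 0 and 7 below (median 0.04), with 0 at an unadjusted p under 0.05. Sall3, Etv1 and Nr2f1 were the most abundant, at -0.29, 0.31 and 0.04. Of 18 genes of migration and polysialic acid, 12 were above 0 and 6 below (median 0.14), with 0 at an unadjusted p under 0.05, the most abundant being Dclk1, a relative of Dcx, at 0.02, Dclk2 at 0.15 and Pafah1b1, the lissencephaly protein, at 0.07. Of 5 glutamatergic lineage genes, 3 were above 0 and 2 below (median 0.01).

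Of 7 tested genes of GABA neuron function, 2 were above 0 and 5 below (median -0.09), with 2 lower at an unadjusted p under 0.05. Abat, which breaks GABA down and was among the most abundant of them, stood at 0.09. Of 17 mature neuron genes 7 were above 0 and 10 below (median -0.04), with 0 at an unadjusted p under 0.05, and the most abundant, Map2, Camk2b and Mapt, stood at 0.09, -0.23 and 0.04. Of 11 genes of the REST and PTB repression systems 6 were above 0 and 5 below (median 0.02), with 0 at an unadjusted p under 0.05. Under the block, DESeq2 called Gabra2 and Synpr of the GABA list and Nrgn of the mature neuron list. All were lower in the libraries labelled knockout, where 2.39% of all genes were called lower. Of the other lineage lists it called 0 genes. The median of 0.22 of the 26 neuroblast genes was above that of each of these lists, a difference that was not tested.

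The culture's own identity and its glial cells were read from marker lists. Of 18 neural stem cell markers, 9 were above 0 and 9 below (median -0.02), and their summed level was 10837 to 13749 CPM in the libraries labelled knockout and 11098 to 13677 CPM in the controls, with Ptprz1, Vim and Fabp7 the most abundant. The 12 astrocyte genes were all above 0 (median 0.68, 2 at an unadjusted p under 0.05), with a summed level of 9850.5 to 22347 CPM in the libraries labelled knockout and 3104 to 14625 CPM in the controls. Within each replicate number that sum was higher in the library labelled knockout. DESeq2 with the block called 6 of the 12, all higher, against 1.17% of all genes. The summed cycling genes were lower in the library labelled knockout within each number. DESeq2 with the block called all 15, each lower, against 2.39% of all genes. Of 13 oligodendrocyte lineage genes, 10 were above 0 and 3 below (median 1.06), with 7 higher and 2 lower at an unadjusted p under 0.05. Their summed level was 4024.5 to 4458 CPM in the libraries labelled knockout and 3821 to 5018 CPM in the controls. DESeq2 with the block called 8 higher, against 1.17% of all genes, and 2 lower, against 2.39%. The part of these lineages in the neuroblast values was not tested. Microglial genes were at or near 0, with a summed level of 0.162 to 0.745 CPM over 6 genes in the libraries labelled knockout and 0.114 to 0.269 CPM in the controls. The 7 endothelial genes summed to 2.98 to 8.91 CPM in the libraries labelled knockout and 4.98 to 7.21 CPM in the controls. The 4 ependymal genes summed to 24.5 to 46.0 CPM in the libraries labelled knockout and 15.6 to 63.2 CPM in the controls. The 8 pericyte and fibroblast genes, nearly all of whose counts came from Cspg4, summed to 191 to 239 CPM in the libraries labelled knockout and 311 to 689.6 CPM in the controls. Cspg4 is also on the oligodendrocyte lineage list, so these sums are not specific to pericytes or fibroblasts.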

How the data were processed

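RNA-seq counts of 6 libraries were used, 3 labelled knockout and 3 controls, grouped by the labels' titles. Per the labels' protocols, RNA was extracted with TRIzol and 2 µg per sample went into NEBNext Ultra libraries. Per the submitters' processing notes, HISAT2 2.1.0, Bowtie2 2.2.3 and mm10 were used, with no role stated. Counter, strand setting and annotation: not given in the sources used here. The deposited table holds the authors' raw counts per gene and, per the file headers, their comparison, with scaled mean counts (a signal), fold change (ratio) and log2 ratio, both control over knockout, and raw and adjusted p-values.

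Counts were tested with edgeR 4.0.16 (R 4.3.3): TMM, filterByExpr (minimum count 10, total 15), glmQLFit, glmQLFTest, Benjamini-Hochberg over all 15087 genes, threshold 0.05. SEs come from the F statistic. Log2 CPM used a prior count of 2. Exon lengths are unions of GENCODE M21 exons, in which 99.8% of gene IDs were found. Upstream stretches are RefSeq's (GRCm38.p6), for 23 of the 32 genes. The tests were checked on simulated counts. Alternatives were DESeq2 1.42.0, limma-voom (limma 3.58.1), other scalings and filters, a replicate block, a Y-linked covariate and each library left out. The named genes were all 32, Sirt6, and the 3 most abundant tested genes of each other list, some of which are not reported here. Genes named for a pattern were picked once their values were known. The genes and lists were chosen with earlier results of these data known.

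All 15 pairs of libraries differed beyond sampling noise (chi-square per degree of freedom of at least 19.4 over genes with at least 60 counts). On these library sizes 1 CPM stands for 16.7 to 18.6 counts, which limits the rarest genes. Titles number the replicates 1 to 3 in both groups. After group means were removed, correlations across genes between same-numbered libraries were 0.43, 0.35 and 0.51. The numbers were therefore taken to pair the libraries. By chi-square per degree of freedom, the libraries labelled knockout 1 and 3 were nearest to their same-numbered controls (19.4 and 34.4). The library labelled knockout 2 was nearer to control 1 (29.5) and control 3 (50.6) than to control 2 (57.1). The pairing was thus inferred from these counts, and for number 2 the chi-square did not rank it first. The labels do not say what the numbers share.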

Additional observations from a re-analysis of the deposited data

How the results depend on the processing

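Over the 9 settings other than leaving out a library, the count of neuroblast genes past the adjusted threshold was 0 except with DESeq2 and the replicate block, which gave 3. The count lower at an unadjusted p under 0.05 was 1 of 26 with edgeR and the block, against 6.77% of all genes. With DESeq2 and the block it was 2 of 30, against 6.10% of all genes with an adjusted p. These counts do not exceed the background by more than a small margin. Without the block both were 0, against 1.50% of all genes by edgeR and 1.30% by DESeq2. The block changed no other adjusted call among the 26 genes. Genes of the other lists past the adjusted threshold numbered 1 with DESeq2 (0.0183% of all genes) and 35 with DESeq2 and the block (3.56% of all genes), against 0 by edgeR. Leaving out each library in turn gave 0 neuroblast genes past the threshold, 3 to 6 higher and 0 to 1 lower at an unadjusted p under 0.05, and 0 to 1 genes of the other lists past it. The shares of all genes were not computed for the fits without a library. The median log2 fold change was 0.063 to 0.35, and 0.39 with the Y-linked covariate, and Sirt6 stayed at 0.51 to 0.81.

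With the Y-linked covariate 7 genes changed sign: Dlx2 stood at -0.21, Neurod1 at 0.32, Sox11 at 0.36, Stmn1 at 0.27, Stmn3 at 0.29, Gap43 at 0.20 and Nrxn3 at 0.31. With single libraries left out, 16 of 26 changed sign and 10 kept it, Dcx, Map1b, Gad1, Tubb3 and Islr2 among them. The ranges of those 16 were -0.97 to 0.29 for Dlx1, -0.18 to 1.10 for Dlx2, -0.15 to 1.36 for Sp9, -0.027 to 0.26 for Meis2, -0.0045 to 0.15 for Prox1 and -1.60 to 0.41 for Neurod1. They were -0.24 to 0.14 for Sox11, -0.93 to 0.071 for Stmn1, -0.23 to 0.16 for Stmn3, -0.19 to 0.43 for Dpysl5, -0.17 to 0.36 for Elavl2, -0.15 to 0.42 for Elavl4, -0.56 to 0.69 for Celf4, -0.49 to 0.83 for Rbfox3, -0.021 to 0.62 for Cd24a and -0.99 to 0.62 for Nrxn3. The cause was not tested. No other setting changed a sign. Depth limits Gad2, Stmn2, Dlx6, Dlx6os1 and Islr2.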

Other observations

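Beside Dlx1, Dlx2 and Sp9, the 17 genes that were lowest in the library labelled knockout 2 and in control 1 with a range above 10-fold included En2 and Cnpy1, which lie close to each other on chromosome 5 and are known from the midbrain-hindbrain region. En2 had 5, 4 and 22 counts in the libraries labelled knockout, against 1, 33 and 11 in the controls. Cnpy1 had 15, 2 and 67 counts in the libraries labelled knockout, against 0, 35 and 25 in the controls. Neuronal genes stood among them as well. Nefl, a neurofilament subunit, had 27, 1 and 11 counts in the libraries labelled knockout, against 4, 7 and 18 in the controls. Syt4, a synaptotagmin, had 61, 2 and 19 counts in the libraries labelled knockout, against 10, 11 and 24 in the controls. These genes were chosen after their values were seen, and all have low counts.

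Neurog2, a proneural factor of glutamatergic neurons and the gene upstream in neurogenesis with an unadjusted p under 0.05, had 2.54, 0.478 and 2.52 CPM in the libraries labelled knockout, against 0, 0.269 and 0.630 CPM in the controls, which overlapped (edgeR adjusted p = 0.998). The GABA neuron genes lower at an unadjusted p under 0.05 were Gabra2 and Synpr. Gabra2, a receptor subunit, had 27.8, 56.8 and 19.9 CPM in the libraries labelled knockout, against 64.3, 95.6 and 70.6 CPM in the controls. Synpr, a synaptic vesicle protein, had 2.43, 6.52 and 2.29 CPM in the libraries labelled knockout, against 13.0, 10.8 and 11.6 CPM in the controls. Neither passed the adjusted threshold in the edgeR fit (adjusted p = 0.998 for both), and DESeq2 with the replicate block called both.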
